A study of Mus musculus with 15 samples.

Results

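The piRNA cluster of mouse chromosome 5 named here by its interval, chr5_113313086_113380791, was described from its reads in 15 small RNA libraries of mouse testis. Its members were all reads that overlap chr5:113313086-113380791 (mm10), in what follows the cluster, on both strands and of all lengths, counted by the authors at each start, end and strand. Such a combination is called a locus here. The interval was taken from the study's list of piRNA clusters and covers 67706 bp. It held 218156 of the 8128951 loci seen in any library, and a single library had between 39992 and 74599 of them. It was selected on measured values, since the loci with the largest rise in Ψ-IP against input and with the largest fall in CMC against mock lie in it, so both of these contrasts are given as a description without a test. The comparison of flow-through with input was not used for that choice, but it shares the input libraries with the Ψ-IP contrast.

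All libraries were from the testes of C57Bl/6 male mice at 8 weeks of age, and the labels name no transgene or mutation. RNA of 17 to 40 nt was cut from a gel. In 1 set, 3 libraries were mock treated (one label field calls them untreated) and 3 were treated with CMC, a carbodiimide that is left on pseudouridine (Ψ) and stops reverse transcriptase. In the other set, RNA was incubated with an antibody against Ψ, giving 3 libraries each of the input, of the RNA bound by the antibody (Ψ-IP) and of the flow-through. The CMC set was made with the NEBNext kit and the IP set with the Perkin Elmer Nextflex v3 kit, so levels were compared only within a set. No source says that replicates were different animals, so p-values measure only the spread between these libraries, which may be technical. Total counts ran from 11575705 to 58399368 per library, of which 521062 to 2596271 lay in the cluster. Whole testis holds many cell types, and in such RNA fewer cells of a type and less RNA per cell cannot be told apart.

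piRNAs are small RNAs of the animal germline that guide PIWI proteins to transposons and to some mRNAs. Their long single-stranded precursors are transcribed from clusters and cut into piRNAs that mostly start with U. In the adult mouse testis most piRNAs come from pachytene clusters, many of which are transcribed in both directions from a shared promoter, and their reads are mostly unique rather than repeat-derived. The PIWI protein MIWI binds longer piRNAs than its relative MILI.

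Few reads of the cluster could be given a sequence, since sequence was at hand only for annotated exons (GENCODE vM21 and RefSeq, GRCm38, the assembly of mm10). Such loci were 5.96% of those in the IP set. The 6 highest 5′ ends in input that lie in exons were picked after their values were seen and are shown, each at its most frequent length in input, to let the letters of typical piRNAs of the cluster be seen beside their levels below. Each is written 5′ to 3′ as DNA with its first base in capitals, and the name gives the position of that base on the minus strand of chromosome 5 (mm10).
pi113325029: Tgagatccacaggtaaacctatctgaaaac
pi113321001: Tgaactaacgtcgtggtggattgttt
pi113324859: Tacttggacaggtgctttctgaatgttta
pi113324935: Taactaatggttggtcatcacaggacaca
pi113324778: Tggtgatgatcagtgtggccagaacaga
pi113324840: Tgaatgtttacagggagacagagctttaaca
All 6 began with T. Among reads of 24 to 33 nt with a sequence, the first base was T in 90.2%, 90.6% and 90.4% of input counts, in 91.7%, 91.9% and 92.6% of Ψ-IP counts and in 88.0%, 87.8% and 88.4% of flow-through counts. Over the positions after the first, T was 27.7% to 28.3% in input, so the first position was strongly biased. In Ψ-IP, T made up 30.6% to 31.7% of these positions and in flow-through 24.2% to 25.5%, and the 3 groups did not overlap. In the CMC set these shares were 29.2% to 29.5% with mock treatment and 28.3% to 28.6% with CMC. In the IP set the reads with a sequence were only 3.42% to 4.19% of the cluster counts. They were mostly minus-strand reads over Gm43353 and 4930405N21Rik, genes described below, and the shares do not stand for the whole cluster. These shares were not tested.

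The cluster was divided sharply by strand. Levels are given as CPM, counts scaled to the library size after TMM normalisation of the locus table. Reads on the left side mapped to the minus strand and reads on the right side to the plus strand, and the crossing lay at chr5 position 113340127, which is 27.041 kb from the first base, in all 15 libraries. At least 99.3% of the counts on each side were on the major strand in every library. In input, the central 98% of minus-strand 5′ ends lay between positions 113321045 and 113339963 and that of plus-strand 5′ ends between 113340471 and 113361288. No read was counted in the 5 kb on either side of the interval in any library, where the files may simply hold no loci, and the first 5 kb inside it held 136 to 388 counts per library. The profile is thus a pair of diverging arms of similar length with nearly empty flanks.

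**Figure D1:**
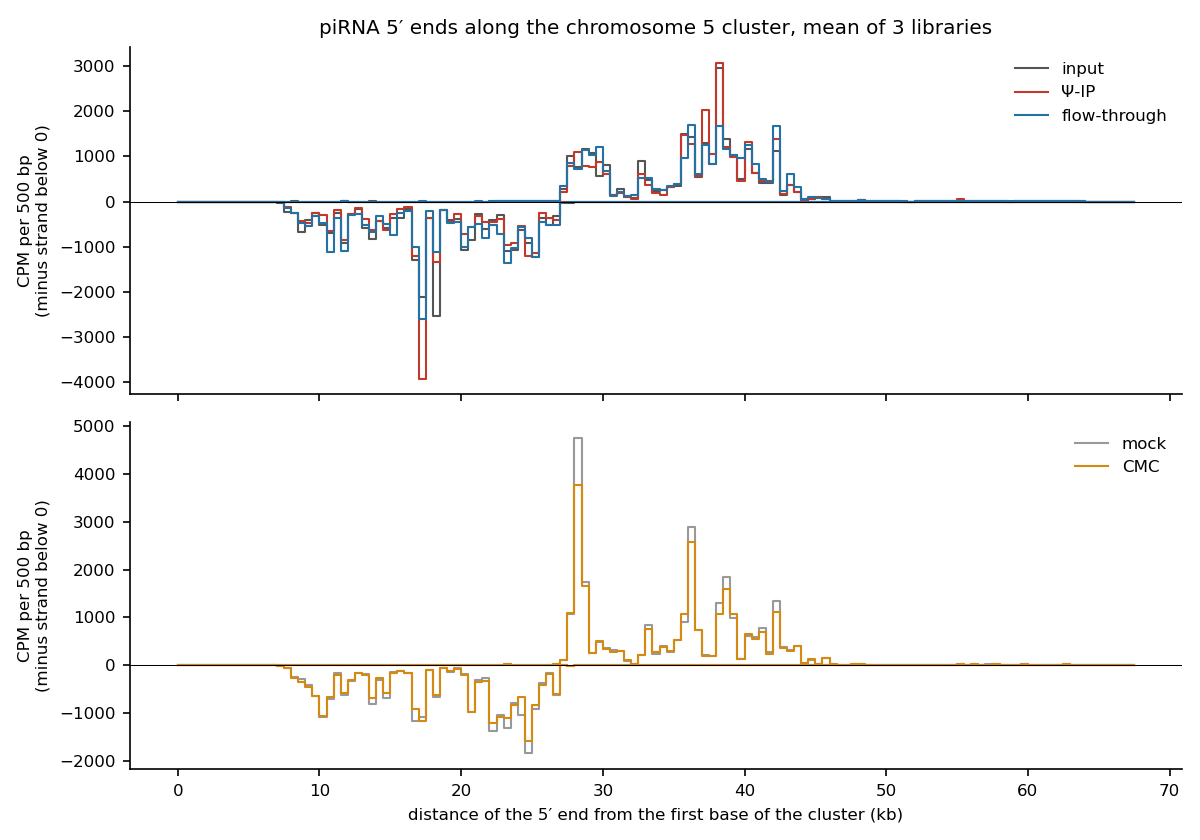
Level of 5′ ends (CPM per 500 bp, mean of 3 libraries) against their distance from the first base of the cluster in kb, with plus-strand reads above 0 and minus-strand reads below 0, for the IP set (upper panel) and the CMC set (lower panel). Both arms meet at 27.041 kb in all groups, and the heights within the arms differ between groups.

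Counts on the plus arm made up 50.3, 50.5 and 50.1% of the cluster in the input libraries and 49.8, 50.8 and 50.2% in flow-through, which overlapped. In Ψ-IP they were 52.5, 52.3 and 52.1%, above all 3 input libraries. With mock treatment they were 54.8 ± 0.159% and with CMC 54.2 ± 0.461% (mean ± SD, n = 3). The arms thus held similar amounts in the IP set, and the plus arm was ahead in all libraries of the CMC set.

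The cluster was among the most abundant of the 647 clusters of the list, at rank 8 in input and Ψ-IP and rank 7 in flow-through, mock and CMC libraries. It held 4.14, 4.18 and 4.14% of the library counts in input, 4.87, 4.66 and 4.60% in flow-through and 4.56, 4.50 and 4.51% in Ψ-IP. All flow-through libraries were above all input libraries, and so were all Ψ-IP libraries. The share was 4.42, 4.45 and 4.50% with mock treatment and 4.37, 4.33 and 4.33% with CMC, and here the CMC libraries were the lower ones without overlap. The 95% Wilson interval of such a share was at most ± 0.012 percentage points, which covers counting error only, as PCR reads without molecular identifiers are not independent molecules.

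Summed over the cluster, counts rose in flow-through against input by 0.21 on the log2 scale (SE 0.024, n = 3 and 3, edgeR adjusted p = 8.11e-06). Each arm rose to the same degree, the plus arm by 0.20 (SE 0.026, edgeR adjusted p = 7.92e-05) and the minus arm by 0.20 (SE 0.029, edgeR adjusted p = 0.000189). Over all clusters tested, 16.6% were called higher and 17.6% lower, and over all arms 16.0% and 15.3%, so a call as such was common. The rise depended on the scaling, with alternatives added after the data were seen. It was 0.18 when counts were scaled to library totals, but 0.015 and not past the threshold (edgeR adjusted p = 0.787) on the TMM sizes of the locus table, on which flow-through lies lower against input by 0.167 (log2) than on library totals. In Ψ-IP against input the summed cluster gave a log2 fold change of 0.14 (plus arm 0.20, minus arm 0.08) and in CMC against mock -0.03 (plus arm -0.05, minus arm -0.02), both as a description. On the TMM sizes of the locus table these values were -0.058 and -0.10. The direction for the whole cluster in Ψ-IP therefore depends on the scaling, and without replicate 1 of CMC the CMC value was -0.048.

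**Figure D2:**
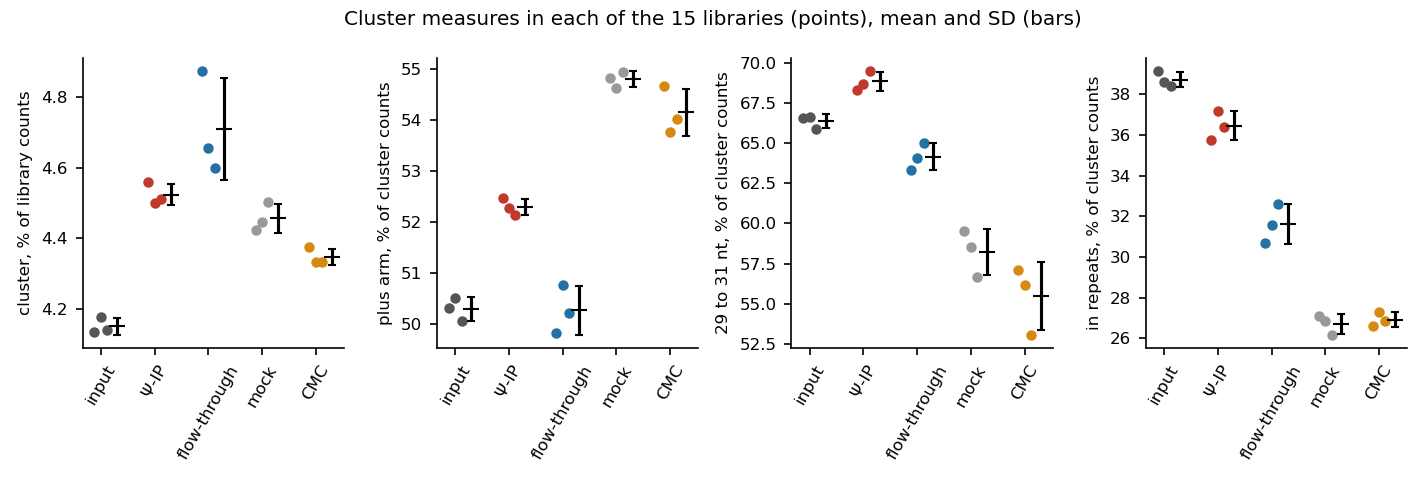
Share of library counts in the cluster, and shares of the cluster counts on the plus arm, at 29 to 31 nt and in repeats, all in percent, for each of the 15 libraries (points) with the mean and SD of each group (bars). The vertical axes do not start at 0. The share in repeats lies around 38.7% in input and around 31.6% in flow-through.

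Lengths were centred on 30 nt, the most frequent length in all 15 libraries. Reads of 29 to 31 nt made up 66.6, 66.7 and 65.9% of the cluster counts in input and 63.4, 64.1 and 65.03% in flow-through. The groups did not overlap, and the difference was -2.24 percentage points (exact two-sided permutation test, n = 3 and 3, p = 0.1, the smallest that 3 against 3 can give). On the plus arm the difference was -4.1 points, and on the minus arm it was -0.362 with overlapping groups (exact permutation p = 0.7). Reads over 33 nt were 1.04 ± 0.0762% in input and 1.78 ± 0.192% in flow-through. The whole libraries moved the same way, from 67.2 ± 0.471% to 65.7 ± 0.716% at 29 to 31 nt (-1.52 points, exact permutation p = 0.1) and from 1.4997 ± 0.103% to 2.22 ± 0.283% over 33 nt, and the cluster was not tested against them. In Ψ-IP, 29 to 31 nt reads were 68.4, 68.7 and 69.5%, above the input libraries. With mock treatment the share was 58.2 ± 1.46% and with CMC 55.5 ± 2.12% (n = 3 each), and these groups overlapped. Each CMC library lay below the mock library of the same number, but the labels do not say what a number shares, and this was not tested. The files of the CMC set hold no read over 33 nt, so the length shares of the 2 sets have different bases.

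The cluster was richer in repeats than the libraries as a whole. In input, 39.1, 38.6 and 38.4% of its counts lay in annotated repeats, whereas 15.3 ± 0.0517% of all library counts did. Most of this was LTR retrotransposon sequence, with 31.8 ± 0.455% of the cluster counts in input. In flow-through the share in repeats was 30.7, 31.6 and 32.6%, below input without overlap, and that in LTR elements was 26.3 ± 0.785%. Over the whole library it was 14.6 ± 0.114% in flow-through, 0.727 points below input, against 7.1 points for the cluster. In Ψ-IP 35.8, 37.2 and 36.4% lay in repeats. In the CMC set 26.7 ± 0.481% of the cluster counts lay in repeats with mock treatment and 26.9 ± 0.362% with CMC. Reads that map to several repeat copies cannot be placed with certainty, and how they were counted was not stated, so positions inside repeats are uncertain.

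Of 41 repeat elements tested on the 2 strands, where an element is all copies of 1 repeat name on 1 strand of the cluster, 13 rose and 11 fell in flow-through against input. Among all clusters, 27.6% of the 1067 elements tested were called higher and 25.6% lower, which gives the background to the 13 and 11 of 41. Scaled to library totals 12 were higher and 13 lower, where 25.4% and 29.5% of all elements were, whereas 7 were higher and 18 lower on the TMM sizes of the locus table, where 17.9% and 38.1% of all elements were. Without replicate 1 or replicate 3 of input, 7 were lower, and the matching share of all elements is not given here. Under every alternative run, 7 of the 13 that rose and 7 of the 11 that fell kept their call. The exceptions were B2, L1M4, Lx8, Lx8b, ORR1B1 and ORR1F among those that rose and Lx7, ORR1B1-int, RLTR30B and RMER15 among those that fell.

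Elements that rose included SINEs, LINEs and LTR elements. CPM values are scaled to the TMM sizes of the locus table, while fold changes of repeat elements come from the TMM fit of the summed elements and lie above the ratio of these CPM values on the log2 scale. The B1 SINE on the plus strand had 10.4, 10.7 and 9.84 CPM in input and 25.6, 19.7 and 18.1 in flow-through (log2 fold change 1.28, SE 0.16, edgeR adjusted p = 6.31e-05). B3, a SINE of the B2 family, had 249, 248 and 248 CPM on the minus strand in input and 521, 425 and 425 in flow-through (log2 fold change 1.11, SE 0.11, edgeR adjusted p = 1.31e-05). For both SINEs all flow-through libraries were above all input libraries. Among LTR elements, MLT1D on the minus strand had 155, 127 and 146 CPM in input and 261, 253 and 253 in flow-through (log2 fold change 1.07, SE 0.09, edgeR adjusted p = 5.33e-06). ERVB5, an ERVK element and the most abundant of those that rose, had 564, 466 and 519.7 CPM in input and 951, 731 and 835 in flow-through (log2 fold change 0.93, SE 0.12, edgeR adjusted p = 6.14e-05). Again the groups did not overlap. RLTR9A (0.89), MTC (0.69), MTEa (0.65), B2 (0.57), Lx8b (0.53), Lx8 (0.50), ORR1F (0.41), ORR1B1 (0.36) and L1M4 (0.33) completed the list, with log2 fold changes in parentheses and adjusted p-values under 0.01.

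Elements that fell included some of the most abundant ones. L1MA10, a LINE-1 remnant on the minus strand, had 570.1, 551 and 594 CPM in input and 148, 194 and 217 in flow-through (log2 fold change -1.40, SE 0.11, edgeR adjusted p = 4.66e-06). MIRc, an old SINE on the plus strand, had 587, 574 and 608 CPM in input and 156, 273 and 257 in flow-through (log2 fold change -1.15, SE 0.15, edgeR adjusted p = 8.92e-05). RLTR20B3, an ERVK long terminal repeat, had 890.2, 741 and 951 CPM in input and 352, 364 and 368 in flow-through (log2 fold change -1.02, SE 0.09, edgeR adjusted p = 7.09e-06). All 3 were lower in every flow-through library than in any input library. The other log2 fold changes were -0.63 (RSINE1), -0.59 (ORR1E), -0.44 (RLTR19-int), -0.42 (MT2B), -0.32 (ORR1B1-int), -0.30 (Lx7), -0.29 (RMER15 on the plus strand) and -0.26 (RLTR30B).

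The repeat with by far the most reads was MurERV4, an ERVK retrovirus-like element on the plus arm. It had 7697, 7949.6 and 7346 CPM in input, 5794, 6486 and 6162 in flow-through and 7703, 8698 and 8861 in Ψ-IP. As a whole it did not pass the threshold in flow-through against input (log2 fold change -0.09, SE 0.06, edgeR adjusted p = 0.173), but it did on the TMM sizes of the locus table (log2 fold change -0.32, edgeR adjusted p = 0.00278). Of the other 9 elements with the highest input level, 5 (ORR1D1, RLTR19C, LTR10, MIR3 and MTE2b) were not past the threshold, with log2 fold changes from -0.30 to 0.09. On the TMM sizes of the locus table RLTR19C, LTR10 and MIR3 were called lower as well.

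**Figure D3:**
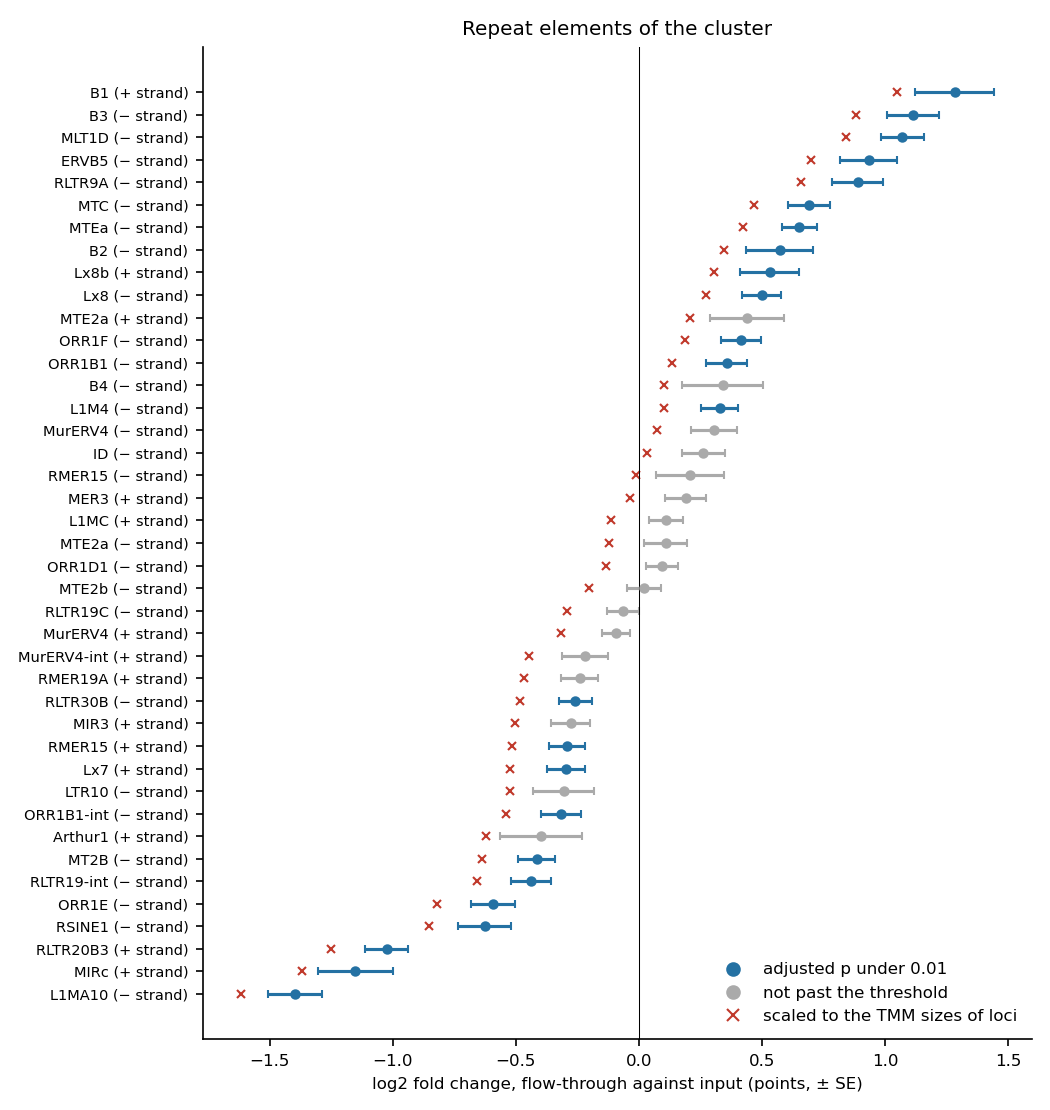
Log2 fold change in flow-through against input of the 41 repeat elements tested in the cluster, with its SE (bars), in blue where the edgeR adjusted p was under 0.01 and in grey otherwise. Red crosses give the log2 fold change on the TMM sizes of the locus table, each to the left of its point, and on that scale 7 elements were called higher and 18 lower.

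Loci were tested singly, over all 686863 loci of the genome with more than 20 counts in the IP set. Of the 25743 loci of the cluster among them, out of 161301 seen in the IP set, 2651 (10.3%) rose and 2478 (9.63%) fell in flow-through against input. Over all loci tested, 6.45% were called higher and 9.73% lower. The share called higher was above that of all loci, and the share called lower was close to it. On library totals 3241 loci of the cluster (12.6%) rose and 1905 (7.4001%) fell, where 8.19% and 7.58% of all loci did. The median log2 fold change was 0.09 in the cluster and -0.24 over all loci, and on library totals 0.29 and -0.04. Without input replicate 1, 2 or 3 the calls were 1567, 1764 and 1536 higher and 1341, 1524 and 1335 lower. The calls over all loci without these libraries are not given here, so the counts show only a dependence on single libraries.

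Within the cluster, the shares called were read by repeat content and arm. Of 17092 tested loci outside repeats, 12.3% rose and 8.63% fell, and of 8651 loci in repeats 6.42% rose and 11.6% fell. Over all loci, 6.64% of those outside repeats were higher and 9.71% lower, against 5.33% and 9.87% in repeats. In the plus arm 11.6% of loci rose and 9.44% fell, and on the minus strand 8.95% rose and 9.82% fell. Over all loci, 6.62% of those on the plus strand were higher and 9.21% lower, against 6.31% and 10.2% on the minus strand. The shares that fell were thus close to those of all loci on both strands. LTR loci of the cluster fell in 11.5% of cases and rose in 6.56%, where 8.76% and 5.43% of all LTR loci did. Neighbouring loci share precursors and often 5′ ends, so they are not independent, and these shares were not tested against each other.

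By input level, the highest locus of the cluster was the 30-nt locus chr5:113330106-113330135 on the minus strand, outside repeats and annotated genes, with 419.9, 418 and 416 CPM in input and 629, 720.5 and 583 in flow-through (log2 fold change 0.58, SE 0.16, edgeR adjusted p = 0.00858). The call was lost without any 1 of the input libraries (edgeR adjusted p = 0.0651, 0.0211 and 0.0648), without flow-through replicate 2 (0.0466), with the replicate number as a block (0.0139) and without a low-count filter (0.347). Its 31-nt neighbour from the same 5′ end was not past the threshold (edgeR adjusted p = 0.0137), though all flow-through libraries lay above input. It passed under 6 of 13 alternatives, with adjusted p-values (edgeR or DESeq2) between 0.000829 and 0.00934. In Ψ-IP the 30-nt locus had 389, 349 and 462 CPM, which overlapped input.

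The second highest in input was the 31-nt locus chr5:113351473-113351503 in MurERV4 on the plus strand. It had 366, 458 and 307 CPM in input, 31.9, 53.9 and 51.1 in flow-through and 439, 853 and 627 in Ψ-IP. It was lower in flow-through (log2 fold change -3.09, SE 0.21), with every flow-through library far below input. The input and Ψ-IP libraries overlapped. This locus was picked by its input level, which is itself part of the contrast and favours a fall, so no p-value is given for it.

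Of the other loci among the 10 highest in input, 7 were called lower in flow-through, and the 31-nt neighbour above did not pass. They were picked by their input level, which is itself part of the contrast and favours a fall. Nothing is read from this count, and no p-value is given for these falls. The 31-nt RMER15 locus chr5:113348949-113348979 had 311, 206 and 229 CPM in input and 29.5, 44.01 and 58.7 in flow-through (log2 fold change -2.55, SE 0.23). The 31-nt locus chr5:113349063-113349093 outside repeats had 208, 271 and 197 CPM in input, 50.99, 85.7 and 93.1 in flow-through (log2 fold change -1.61, SE 0.21) and 554, 614 and 622 in Ψ-IP. Here input stood between both fractions, without overlap. The remaining 5 had log2 fold changes from -2.01 to -0.81 in flow-through. The weakest of them, the ORR1D1 locus chr5:113333447-113333477, was not past the threshold on library totals (log2 fold change -0.60) or among loci averaging at least 10 counts. Nor did the locus pass without input replicate 1, input replicate 3 or flow-through replicate 2. It had 203, 163 and 176 CPM in input and 22.02, 13.7 and 19.01 in Ψ-IP.

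Summed over lengths, 5′ ends were read as a description. The highest 5′ end in input, at position 113330135 on the minus strand, had 1046, 1045 and 1054 CPM in input, 908, 777 and 1075 in Ψ-IP and 1626, 1714 and 1471 in flow-through. It stayed the highest in flow-through. The MurERV4 end at 113351473 on the plus strand, the third in input, was second in Ψ-IP but only at rank 77 in flow-through, with 603, 751 and 507 CPM in input, 634, 1294 and 941 in Ψ-IP and 61.2, 101 and 95.6 in flow-through. The RLTR20B3 end at 113346008 had 371, 328 and 432 CPM in input and 48.97, 64.4 and 63.98 in flow-through. Reads of each end were spread over 17 to 27 lengths in input, with the most frequent one between 29 and 31 nt. These ends were picked by their input level, which is itself part of the contrast, so nothing is read from how many lay lower in flow-through. In the CMC set the plus-strand end at 113341402 was the highest, with 3501 ± 166 CPM with mock treatment and 2533 ± 467 with CMC (mean ± SD, n = 3). The 10 highest ends of each library held 10.1 ± 0.132% of the cluster counts in input, 13.3 ± 0.230% in Ψ-IP, 9.85 ± 0.685% in flow-through and 19.8 ± 0.596% with mock treatment.

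**Figure D4:**
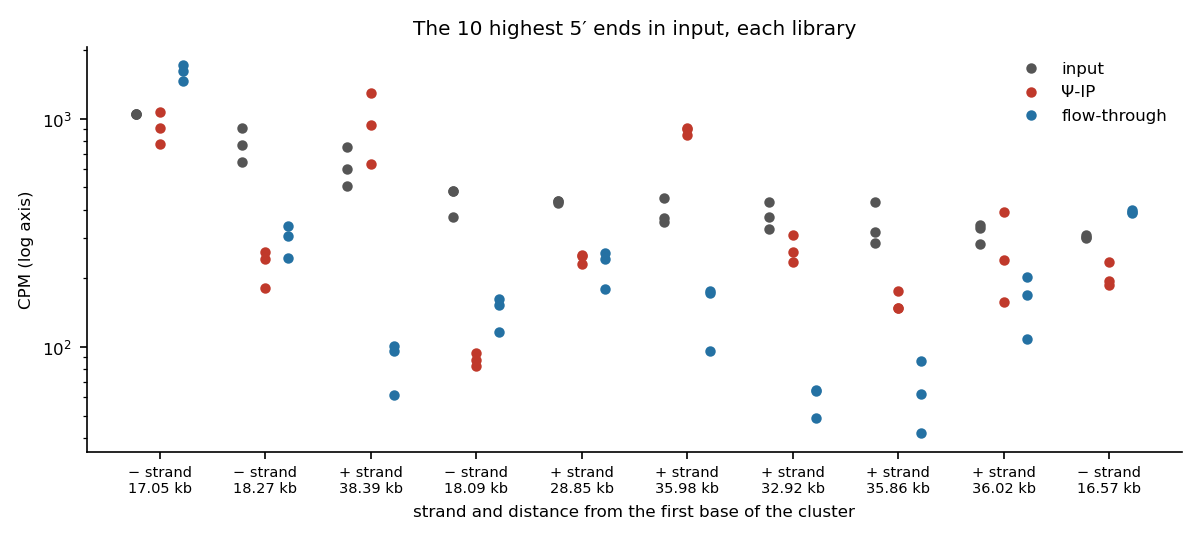
CPM on a log axis of the 10 highest 5′ ends in input, in each input, Ψ-IP and flow-through library, in order of their mean input level, with strand and distance from the first base of the cluster. The end at 16.57 kb and that at 17.05 kb, both on the minus strand, lie higher in flow-through than in input and the other 8 lower.

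For the largest changes in flow-through, loci had to average 100 counts or more. In the cluster 1358 did, of which 385 (28.4%) were called higher and 437 (32.2%) lower in all 9 pairs of libraries. Of the 27973 such loci of the genome, 23.5% were called higher and 33.9% lower. A locus can reach this average through the group in which it is high, as all 20 loci that follow did, so these counts and loci are a description and no p-value is given for them. The 10 with the largest rise had log2 fold changes from 3.32 to 3.70, and 8 of them lay on the plus strand between 28.2 and 41.2 kb from the first base. At the top, the 29-nt locus chr5:113341909-113341937 had 2.46, 1.67 and 1.88 CPM in input, 1.56, 1.74 and 2.06 in Ψ-IP and 33.3, 21.7 and 25.9 in flow-through (log2 fold change 3.70). The 31-nt locus chr5:113354320-113354350 had 1.03, 1.23 and 0.647 CPM in input, 2.69, 4.49 and 6.19 in Ψ-IP and 13.95, 14.2 and 8.75 in flow-through (log2 fold change 3.62). For these 2, flow-through was above both other groups in every library. Among the 10, 9 lay outside repeats and 1, chr5:113354007-113354034, in the DNA transposon MER3.

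The 10 largest falls had log2 fold changes from -4.67 to -3.64, and 4 of them lay in MurERV4. At the 29-nt locus chr5:113333629-113333657 on the minus strand, CPM values were 14.05, 10.8 and 11.7 in input, 9.28, 9.63 and 9.07 in Ψ-IP and 0.144, 0.919 and 0.456 in flow-through (log2 fold change -4.67). The 30-nt locus from the same 5′ end had 39.7, 37.3 and 37.5 CPM in input and 1.92, 2.45 and 2.74 in flow-through (log2 fold change -4.06). Both lengths of this piRNA were low in every flow-through library. In MurERV4, the 30-nt locus chr5:113350615-113350644 had 46.5, 48.7 and 45.4 CPM in input, 52.2, 141 and 72.3 in Ψ-IP and 1.83, 5.03 and 4.94 in flow-through (log2 fold change -3.64). The 29-nt locus chr5:113350491-113350519 had 27.8, 21.7 and 22.5 CPM in input, 43.3, 45.6 and 37.1 in Ψ-IP and 1.25, 1.47 and 2.74 in flow-through (log2 fold change -3.80). At both loci every Ψ-IP library was above every input library. The highest of the 10, the 29-nt locus chr5:113330030-113330058, had 76.6, 67.9 and 71.3 CPM in input and 2.84, 5.82 and 6.24 in flow-through (log2 fold change -3.92). The others were in RLTR19C (chr5:113326664-113326692, -4.03), in RLTR20B3 (chr5:113346008-113346034, -3.75), in MurERV4 (chr5:113350615-113350643, -4.38 and chr5:113350763-113350791, -3.85) and outside repeats (chr5:113327363-113327393, -4.32).

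Ψ-IP values were read next, as a description. Against input, 1737 of the 25743 loci were called higher and 2607 lower, where 5.45% and 10.7% of all loci were called. This contrast was used to choose the cluster, and nothing is read from these counts. Without input replicate 1 they were 832 and 1541, and without input replicate 3 there were 851 higher calls. The shares of all loci called without these libraries are not given here. Among loci averaging at least 10 counts 1621 were lower, where 18.9% of all such loci were. The locus behind the choice was chr5:113350515-113350544, a 30-nt piRNA of MurERV4 on the plus strand, with 2.31, 2.18 and 1.75 CPM in input and 15.1, 9.53 and 15.4 in Ψ-IP (log2 fold change 2.72). The rule that picked it required every Ψ-IP library above every input library, so this separation is not a result. In flow-through the locus had 8.47, 6.25 and 5.33 CPM. The input libraries that chose this locus stand in both contrasts, so flow-through values are given without a test for all loci chosen by their Ψ-IP change. It was counted 0 times in the 3 mock libraries. A second 30-nt locus that begins 3 nt downstream, chr5:113350518-113350547, had 11.8, 11.04 and 13.01 CPM in input, 64.9, 59.6 and 81.1 in Ψ-IP and 39.98, 31.99 and 25.9 in flow-through.

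The other 3 large rises in Ψ-IP by the same rule lay on both arms. The 28-nt locus chr5:113330069-113330096 on the minus strand had 5.94, 7.19 and 5.11 CPM in input, 39.5, 30.98 and 37.2 in Ψ-IP and 6.93, 7.11 and 4.41 in flow-through. The 29-nt locus from the same 5′ end had 22.05, 24.3 and 25.4 CPM in input, 146, 101 and 114 in Ψ-IP and 22.2, 20.4 and 21.5 in flow-through. The 31-nt MurERV4 locus chr5:113352123-113352153 had 13.5, 11.04 and 12.6 CPM in input, 56.1, 59.1 and 71.7 in Ψ-IP and 11.7, 11.03 and 9.89 in flow-through. For these 3, flow-through overlapped input. The 5 largest falls in Ψ-IP had log2 fold changes from -4.24 to -3.45. The first of them, the 26-nt locus chr5:113349011-113349036 in RMER15, had 12.4, 11.3 and 15.01 CPM in input, 0.607, 0.917 and 0.528 in Ψ-IP and 1.59, 4.17 and 2.21 in flow-through.

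After CMC treatment 275 of the 19206 loci tested in the cluster were called higher and 183 lower, where 1.07% and 0.654% of all loci were called. With replicate number as a block the counts were 328 and 288. Without mock replicate 2 they were 169 and 68, and without mock replicate 1, mock replicate 3 or CMC replicate 2 the lower calls were 120, 107 and 84. The shares of all loci called under these alternatives are not given here, and nothing is read from these counts. This contrast too was used to choose the cluster. Its locus was chr5:113348960-113348979, a 20-nt RNA of RMER15 on the plus strand, with 8.11, 3.87 and 4.74 CPM with mock treatment and 0.0439, 0.125 and 0.114 with CMC. These were 267, 209 and 173 counts against 2, 3 and 3. It was counted 0 times in all 9 libraries of the IP set, where a count of 0 allows up to 3 in each. The next falls were much smaller. The 24-nt locus chr5:113331555-113331578 in ORR1F had 3.74, 3.85 and 4.55 CPM with mock treatment and 1.78, 1.58 and 1.21 with CMC. The 29-nt locus chr5:113355327-113355355 had 32.5, 26.8 and 25.6 CPM with mock treatment and 14.4, 10.7 and 7.81 with CMC. The 30-nt and 26-nt loci from its 5′ end had log2 fold changes of -1.36 and -1.32. All of these were picked by a rule that requires every CMC library below every mock library, so this separation is not a result.

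The largest rises with CMC were at loci that share their 3′ end with a longer, far more abundant locus. The 29-nt locus chr5:113340843-113340871 had 0.243, 0.222 and 0.384 CPM with mock treatment and 21.5, 20.1 and 24.2 with CMC. It ends at the same base as the 31-nt locus chr5:113340841-113340871, which had a mean of 336 CPM with mock treatment and 299.6 with CMC. The 26-nt locus chr5:113341405-113341430 had 0.881, 1.17 and 0.959 CPM with mock treatment and 19.7, 19.2 and 23.8 with CMC. It ends with the 29-nt locus chr5:113341402-113341430, which had 1837, 1731 and 1908 CPM with mock treatment and 1581, 1156 and 1136 with CMC. The short forms were picked by a rule that requires every CMC library above every mock library. The 29-nt long form was lower in every CMC library than in any mock library, and the 31-nt long form overlapped. The 20-nt RMER15 locus above also shares its 3′ end with a longer one, the 31-nt RMER15 locus among the highest in input, and starts 11 nt downstream of it, but moved the other way.

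Of the 275 loci called higher with CMC, 222 (80.7%) shared strand and 3′ end with a longer locus of higher mock level, and over all loci tested 73.8% of 5979 did. The mock level is 1 side of this contrast, so a locus called higher is more likely to have such a partner by the definition alone, and the contrast chose the cluster. Nothing is read from these shares.

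**Figure D5:**
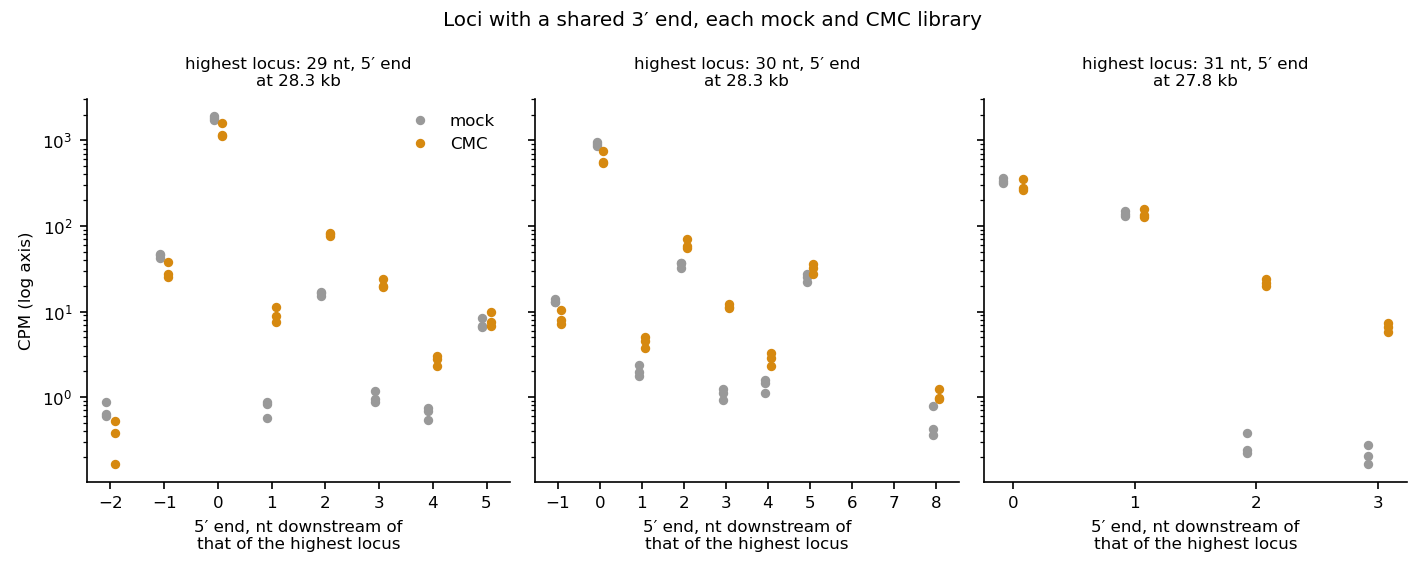
CPM on a log axis of loci with a shared 3′ end in each mock and CMC library, against the number of nt by which their 5′ end lies downstream of that of the highest locus, for 3 shared 3′ ends, those of the 29-nt and the 30-nt locus that start at 28.316 kb (left and middle) and of the 31-nt locus at 27.755 kb (right). The highest locus (0 nt) lies lower with CMC in the left and middle panels and overlaps in the right one, while loci starting 1 to 4 nt downstream lie higher with CMC in the left and middle panels and those starting 2 and 3 nt downstream in the right one.

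Called both higher in Ψ-IP and lower with CMC were 60 (0.539%) of the 11135 loci tested in both sets, where 0.298% of 293568 loci of the genome were. Both contrasts chose the cluster, so nothing is read from this count. The most abundant was the 29-nt locus at 113341402 described above, with 97.6, 82.9 and 103 CPM in input, 136, 136 and 154 in Ψ-IP and 20.6, 56.02 and 43.1 in flow-through. Its 30-nt form had 89.4, 77.7 and 94.1 CPM in input, 183, 153 and 189.6 in Ψ-IP and 17.6, 37.02 and 29.7 in flow-through. The form that starts 1 nt upstream and also has 29 nt had 18.4, 14.2 and 18.4 CPM in input, 27.8, 27.1 and 27.6 in Ψ-IP and 2.84, 3.55 and 3.73 in flow-through. All 3 forms, which share nearly all bases, were lowest in flow-through. The other 2 of the 5 most abundant lay in MurERV4. The locus chr5:113351602-113351630 had 299.8, 315 and 320.3 CPM with mock treatment and 247, 201 and 236 with CMC, and the locus chr5:113351359-113351387 had 197, 232 and 207 with mock treatment and 152, 149 and 129 with CMC.

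Annotated genes cover little of the cluster. The nearest annotated gene to its left, Sgsm1, lies 2300 bp away, and GENCODE places 4930405N21Rik (chr5:113320454-113321653, minus strand), Gm43353 (chr5:113324186-113325480, plus strand), Mir7229, Mir7230 and Aym1 (chr5:113357294-113357821, plus strand) inside it. The piRNAs with a printed sequence lie in their exons, and the loci named by coordinates above lie outside them. The reads over Gm43353 were antisense to it, with 1348, 1409 and 1364 CPM on the minus strand in input and 1631, 1757 and 1603 in flow-through, against 4.71, 2.47 and 2.98 CPM on its own strand in input. Reads over this gene thus lay on the strand of the arm. Over 4930405N21Rik minus-strand reads had 506, 511 and 519.9 CPM in input and 391, 438 and 421 in flow-through. Over the exons of Aym1, a protein-coding gene, plus-strand reads had 45.97, 48.3 and 40.97 CPM in input and 75.2, 75.4 and 64.7 in flow-through. All flow-through libraries were above input for Gm43353 and Aym1 and below it for 4930405N21Rik.

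The levels of the 6 piRNAs whose letters are given above follow, summed over all lengths of a 5′ end and with no test. pi113325029, antisense to Gm43353, had 194, 190.4 and 184 CPM in input, 31.1, 25.6 and 27.6 in Ψ-IP and 159.6, 150.2 and 177 in flow-through. pi113324859, also antisense to Gm43353, had 75.1, 95.7 and 75.7 CPM in input, 93.99, 129 and 136 in Ψ-IP and 26.3, 41.1 and 39.3 in flow-through. The first was thus lowest in Ψ-IP and the second lowest in flow-through, with no overlap between these groups and input. They hold 6 and 12 T in their 30 and 29 bases. pi113321001 in 4930405N21Rik, with 10 T, had 104, 111 and 118 CPM in input, 43.00, 58.8 and 55.9 in Ψ-IP and 30.4, 53.8 and 57.9 in flow-through, below input in both fractions. pi113324935, with 7 T, had 60.5, 62.2 and 66.1 CPM in input, 22.02, 23.2 and 29.8 in Ψ-IP and 39.1, 44.9 and 41.8 in flow-through, also below input in both. pi113324778, with 6 T, had 44.3, 29.1 and 45.8 CPM in input, 30.95, 18.9 and 31.3 in Ψ-IP and 66.1, 61.5 and 64.97 in flow-through, where every library was above input, while Ψ-IP overlapped it. pi113324840, with 8 T, had 33.7, 36.7 and 40.9 CPM in input, 31.6, 30.6 and 49.05 in Ψ-IP and 39.4, 48.3 and 49.1 in flow-through, and both fractions overlapped input.

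Both microRNA genes of the cluster lie on the minus strand, where piRNAs are made, so the lengths of their reads were examined. The mature sequences (RefSeq, GRCm38.p6) of Mir7229 are shown 5′ to 3′ with the seed, bases 2 to 8, in capitals, because their 5′ ends are also 5′ ends of longer reads.
mmu-miR-7229-5p: uAGUAGACaucccuggauagc
mmu-miR-7229-3p: uACACAGAccagugacuuucugca
The 5p sequence lies at chr5:113324525-113324545 and the 3p sequence at chr5:113324493-113324516. In the 3 input libraries 1375 reads began at the 5p end, of which 2 had the annotated length and 1.6% were under 24 nt, and 32 nt was the most frequent length. At the 3p end there were 954 reads, of which 4 had the annotated length, and 30 nt was the most frequent length. The 5p end had 27.3, 24.5 and 31.2 CPM in input, 7.37, 6.97 and 5.23 in Ψ-IP and 24.1, 16.7 and 13.8 in flow-through, with all lengths summed. The 3p end had 17.5, 25.6 and 15.9 CPM in input, 18.99, 30.9 and 32.3 in Ψ-IP and 17.1, 19.4 and 24.9 in flow-through, and both fractions overlapped input. In input, nearly all reads at these ends were thus longer than the annotated microRNAs. With mock treatment 10.4% of the 2738 reads at the 5p end were under 24 nt. At the 5p end of Mir7230, 159 of 700 mock reads had the annotated length and 30.1% were under 24 nt.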

How the data were processed

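Small RNA of mouse testis was sequenced in 15 libraries, 3 each of mock, CMC, input, Ψ-IP and flow-through, grouped by their labels. The authors trimmed reads with Cutadapt, selected reads by length, set tRNA fragments aside, mapped the rest to mm10 with Bowtie2 allowing few mismatches, and assigned piRNA clusters and repeats with bedtools. The authors deposited raw counts per library for each start, end and strand, with reads of 15 to 44 nt in the IP set and 14 to 33 nt in the CMC set. How reads with several positions were counted was not given in the sources used here.

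From these counts, loci with more than 20 counts over a set, and clusters, arms and repeat elements averaging at least 100 counts per input or mock library, were tested over all features with edgeR 4.0.16 in R 4.3.3 (quasi-likelihood test, TMM scaling, Benjamini-Hochberg adjustment, adjusted p under 0.01). CPM were scaled to the TMM library sizes of the locus table, on which flow-through lies 0.167, Ψ-IP 0.184 and CMC 0.066 lower (log2) than on library totals. The median of members and of all loci is given in place of a set test. The share of 29 to 31 nt reads was tested by an exact two-sided permutation test. Alternatives were the DESeq2 1.42.0 size factors and Wald test, other filters, loci of 24 to 33 nt, the replicate number as a block, leaving out each library, and, chosen after seeing the data, scaling to library totals or to the locus table.

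Loci named are the 10 highest in input, the 10 largest rises and falls in flow-through and 5 in each other contrast among loci averaging at least 100 counts and moving one way in all 9 pairs of libraries, and the 5 most abundant in both contrasts. Repeat elements named are the 10 highest in input and those past the threshold, and 5′ ends the 10 highest in input. Exon piRNAs, the end at 113341402 and the 3′ end comparison were added after values were seen. Members and lists were chosen with earlier results of these data known.

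Same-numbered mock and CMC libraries deviated together among loci averaging over 50 counts, with correlations of 0.116, 0.137 and 0.281 over loci, but over 10 counts with 0.034, 0.051 and 0.124. The labels do not say what a number shares, and the blocked count is printed beside that contrast.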

Additional observations from a re-analysis of the deposited data

How the results depend on the processing

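With the replicate number as a block, 2497 loci of the cluster were higher and 2515 lower in flow-through, 1510 and 2288 in Ψ-IP, and 328 and 288 with CMC, and 13 repeat elements were higher and 7 lower in flow-through. Same-numbered input and flow-through libraries deviated together in 1 of 3 pairs (correlations over loci -0.087, 0.143 and 0.017), and input and Ψ-IP libraries did in 2 of 3 pairs (0.243 and 0.295) but not in the other (-0.030).

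On the TMM sizes of the locus table, chosen after seeing the data, the flow-through change was 0.015 for the cluster, 0.014 for the plus arm and 0.016 for the minus arm and lost its call, the Ψ-IP change of the cluster was -0.058 and the CMC change -0.10, and 7 repeat elements were higher and 18 lower. The Ψ-IP change of the cluster was 0.153 with DESeq2 size factors and in its Wald test, 0.12 for loci of 24 to 33 nt, 0.124 on library totals and 0.133 to 0.149 with 1 library left out. The CMC change was -0.048 to -0.021 with 1 library left out.

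Leaving out each library in turn gave 1536 to 3126 loci higher and 1335 to 2467 lower in flow-through, 832 to 1887 and 1541 to 2516 in Ψ-IP, 169 to 274 and 68 to 263 with CMC, and 7 to 11 repeat elements lower in flow-through. The DESeq2 Wald test called 1126 loci higher and 1650 lower in Ψ-IP and 181 higher with CMC. Without a filter 820 were higher in Ψ-IP, 99 lower with CMC and 19 repeat elements lower in flow-through. Among loci averaging 10 counts, 1621 were lower in Ψ-IP, and among repeat elements averaging 1000 counts, 7 were lower. For most settings of this section the shares of all loci or repeat elements called are not given here. The counts show a dependence on the processing and are not read as a result about the cluster. The cause of these changes was not tested.

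Of the values of the named loci and repeat elements under the alternatives in flow-through, 736 stayed on their side of the threshold, 60 lost a call and 17 gained one, of which 7 were of MIR3, 6 of the 31-nt neighbour of the highest locus in input, 2 of LTR10 and 1 each of MurERV4 and RLTR19C. The other 6 changed sign without passing the threshold in either setting. MTE2b lay between -0.020 (without flow-through replicate 2) and 0.051 with 1 library left out and was -0.157 without a filter, -0.039 on library totals and -0.203 on the TMM sizes of the locus table. ORR1D1 was -0.085 without a filter and -0.133 on the TMM sizes of the locus table. Depth limited loci of few counts, since 25743 of 161301 loci of the IP set passed the count minimum.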
